A study of Homo sapiens with 24 samples.

Results

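The NRF2 system was followed at the level of messenger RNA in 22Rv1 cells given KB05, KB02 or vehicle (DMSO). 22Rv1 is an established line from a human prostate carcinoma. The 9 genes described are NFE2L2, NFE2L1, KEAP1, MAFF, MAFG, MAFK, NQO1, OSGIN1 and TKT. Their rows were found by gene symbol, and are 9 of the 60232 gene rows of the count table. The set was proposed with earlier results of these data known. All 3 groups are the same cell line, given as a single line with no genetic change, and each has 3 libraries. KB05 and KB02, small molecules given by code name only, were both used at 200 µM, and all 3 groups are labelled as the 3 h time point, whereas the columns of the count table carry a 2 h tag. Cells met either compound for 1 h and then spent 2 h in fresh medium. The sources do not state whether the DMSO cells had the same change of medium. A further 15 samples, labelled 8 h, were not analysed here.

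NRF2, the protein made from NFE2L2, is a transcription factor that switches on genes for detoxification, glutathione and NADPH supply when cells meet oxidants or electrophiles. In unstressed cells KEAP1, a substrate adaptor of the CUL3 ubiquitin ligase, marks NRF2 for destruction, and modification of reactive cysteines in KEAP1 lets NRF2 build up. NRF2 therefore responds mainly through protein stability, which RNA sequencing does not measure. NRF2 binds antioxidant response elements (AREs) together with a small MAF protein (MAFF, MAFG or MAFK). The small MAFs lack a transactivation domain of their own, and pairs made only of small MAFs repress. NFE2L1 encodes NRF1, a related factor anchored in the endoplasmic reticulum that drives proteasome genes. NQO1 (a quinone reductase), OSGIN1 (an oxidative stress-induced growth inhibitor) and TKT (transketolase, of the non-oxidative pentose phosphate pathway) are known NRF2 targets.

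The libraries held 15506975 to 21900548 counts. The 9 genes had between 227 and 11461 counts in a library, and their within-group coefficient of variation ran from 0.828% to 13.2%. All 12 prostate luminal markers looked for, KRT8 and EPCAM among them, were detected in every library. Their summed level was 3626 to 3680 CPM with KB05, 2745 to 2945 CPM with KB02 and 3231 to 3553 CPM with DMSO, where CPM is the usual depth-scaled count, here with TMM factors for library composition. Of the 12, 5 rose and 3 fell with KB05, and 2 rose and 8 fell with KB02 (median log2 fold change 0.09 with KB05 and -0.42 with KB02). EPCAM fell by 0.38 with KB05 and by 1.44 with KB02, and TMPRSS2 by 0.81 with KB05 and by 1.34 with KB02, both on the log2 scale. Of 20 markers of other cell types, 10 with KB05, 8 with KB02 and 9 with DMSO stayed under 1 CPM in every library of the group. Their summed level was 849 to 861 CPM with KB05, 473 to 509 CPM with KB02 and 1151 to 1223 CPM with DMSO, most of it from ALB and SYP. Of the 13 that could be tested, 1 rose and 2 fell with KB05, and 3 rose and 3 fell with KB02. Over all genes tested, 39.8% rose or fell with KB05 and 46.1% with KB02. ALB changed by -0.56 ± 0.07 on the log2 scale with KB05 and by -1.52 ± 0.07 with KB02. SYP changed by -0.26 ± 0.07 with KB05 and by -0.99 ± 0.07 with KB02, and CHGA by -0.91 ± 0.22 with KB02. The monocyte marker CD14 averaged 0.397 CPM with KB05, 8.8 CPM with KB02 and 0.541 CPM with DMSO, LYZ rose by 0.86 ± 0.29 on the log2 scale with KB02, and COL1A1 rose by 0.45 ± 0.12 with KB05 and 0.65 ± 0.11 with KB02. The endothelial marker VWF and the basal keratin KRT5 were at 0 in all KB05 and DMSO libraries. The part of these shifts in the results on the 9 genes was not tested. In bulk RNA, fewer expressing cells and less RNA per cell cannot be told apart.

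Both compounds shifted most of the 9 genes, and the shifts were mixed in direction. With KB05, 4 genes rose (KEAP1, MAFF, MAFG, OSGIN1) and 3 fell (NFE2L2, NFE2L1, TKT), that is 7 of 9, where 39.8% of all 18379 genes tested were called. With KB02, 5 rose (the same 4 and NFE2L2) and 3 fell (NFE2L1, NQO1, TKT), 8 of 9, where 46.1% of all genes tested were called. A gene was called when edgeR's quasi-likelihood test gave a Benjamini-Hochberg adjusted p under 0.05 over all genes tested. By direction, 18.7% of all genes were called higher and 21.1% lower with KB05, and 22.8% higher and 23.3% lower with KB02. The libraries of the 2 groups did not overlap for 8 of the 9 genes with KB05 (all but NQO1), against 49.2% of all genes, and for 8 with KB02 (all but MAFK), against 53.5%. At least 2-fold changes were seen for 1 of the 9 genes with KB05 (MAFF) and for 2 with KB02 (MAFF and OSGIN1). The share of all genes that changed 2-fold was not counted, so these counts have no background beside them. By log2 fold change, from the highest rise down, MAFF ranked 1130 of 18379 with KB05. With KB02 MAFF ranked 586 and OSGIN1 623. The KB05 value of MAFF sits at the 2-fold line: its log2 fold change of 1.01 was 0.99 with RLE scaling and with DESeq2, 0.98 without KB05 replicate 2 or 3 and 0.92 without DMSO replicate 1. Both comparisons use the same DMSO libraries.

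**Figure D1:**
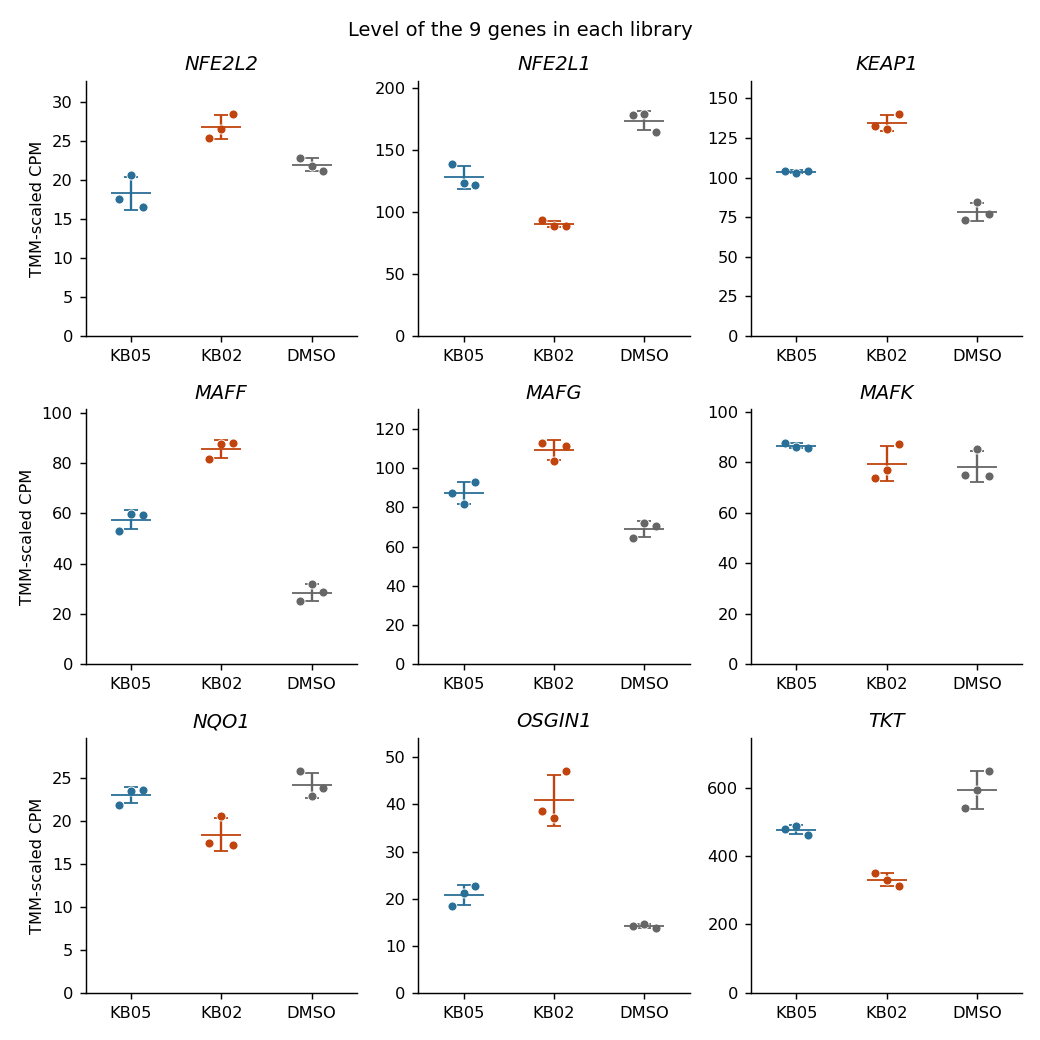
TMM-scaled CPM (linear axes from 0) of each of the 9 genes in the KB05, KB02 and DMSO libraries; points are single libraries, the long bar is the mean and the whisker 1 SD of 3 libraries. MAFF lay at 53 to 59.7 CPM with KB05 and 81.4 to 88 CPM with KB02, above all DMSO libraries, while TKT and NFE2L1 were lowest with KB02.

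NFE2L2, the gene of NRF2 itself, moved little, and the compounds differed more from each other than either did from DMSO. It lies on the minus strand of chromosome 2 at 177227595 to 177392697 (all positions GRCh38, GENCODE 29) and is protein-coding, as are the other 8 genes. Its level was 17.7, 20.7 and 16.6 CPM in the KB05 libraries, 25.4, 26.6 and 28.5 CPM in the KB02 libraries and 22.9, 21.8 and 21.2 CPM in the DMSO libraries. No library of one group overlapped another group, but the gaps to DMSO were narrow. The log2 fold change against DMSO was -0.27 ± 0.10 (SE) with KB05 (adjusted p = 0.0316) and 0.29 ± 0.10 with KB02 (adjusted p = 0.0146). KB05 against KB02 gave -0.55 ± 0.10, with an adjusted p of 2.73e-05. The KB05 call against DMSO ended without DMSO replicate 1 (adjusted p = 0.0833), DMSO replicate 2 (0.0623), KB05 replicate 1 (0.0959) or KB05 replicate 3 (0.166), and with upper-quartile scaling (0.0542) or library size only (0.0612), in a range of 0.0106 to 0.166 over all settings. The KB02 call ended without DMSO replicate 3 (0.0542) or KB02 replicate 3 (0.0634), in a range of 0.00103 to 0.0634, whereas the difference between the compounds was called under every setting tried.

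KEAP1, the repressor of NRF2, was higher with both compounds (chromosome 19, 10486120 to 10503741, minus strand). Its level was 104, 103 and 104 CPM in the KB05 libraries, 133, 131 and 140 CPM in the KB02 libraries and 73.4, 84.6 and 77.0 CPM in the DMSO libraries. The 3 groups did not overlap, and KB05 lay between KB02 and DMSO. KEAP1 rose by a log2 fold change of 0.41 ± 0.07 with KB05 (adjusted p = 2.48e-05) and of 0.78 ± 0.07 with KB02 (adjusted p = 6.76e-11). On the level per kb of transcript, KEAP1 over NFE2L2 was 5.52 ± 0.648 with KB05, 4.84 ± 0.177 with KB02 and 3.44 ± 0.328 with DMSO (SD, n = 3). The ratio was not tested, and the libraries of the compounds overlapped (4.798 to 6.057 with KB05, 4.734 to 5.045 with KB02). Per kb of merged exons instead of the principal transcript, this ratio was 9.08 ± 1.07 with KB05, 7.97 ± 0.291 with KB02 and 5.67 ± 0.540 with DMSO.

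NFE2L1, the NRF1 gene, was lower with both compounds (chromosome 17, 48048329 to 48061487, plus strand). It measured 139, 124 and 122 CPM in the KB05 libraries, 93.4, 89.0 and 88.5 CPM in the KB02 libraries and 178, 179 and 165 CPM in the DMSO libraries. Each KB02 library was below each KB05 library, and each KB05 library was below each DMSO library. The log2 fold change was -0.44 ± 0.07 with KB05 (adjusted p = 6.56e-06) and -0.95 ± 0.07 with KB02 (adjusted p = 1.23e-12). The KB02 value is a 1.93-fold fall, at percentile 8 of the log2 fold changes of all genes tested.

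Among the small MAF genes MAFF rose most, MAFG rose less and MAFK was not called. MAFF (chromosome 22, 38200767 to 38216511, plus strand) measured 53.0, 59.7 and 59.5 CPM with KB05, 81.4, 87.4 and 88 CPM with KB02 and 25.1, 31.8 and 28.6 CPM with DMSO. These libraries fell into 3 separate bands. MAFF rose 2.01-fold with KB05 (log2 fold change 1.01 ± 0.08, adjusted p = 6.78e-11) and 3-fold with KB02 (1.59 ± 0.08, adjusted p = 7.16e-16). Its change with KB02 exceeded that of 96.8% of all genes tested, and with KB05 that of 93.9%.

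MAFG (chromosome 17, 81918270 to 81927714, minus strand), the small MAF most often studied as a partner of NRF2, measured 87.3, 81.8 and 92.7 CPM with KB05, 113, 104 and 111 CPM with KB02 and 64.1, 72.1 and 70.5 CPM with DMSO. Again no groups overlapped. The log2 fold change was 0.34 ± 0.07 with KB05 (adjusted p = 0.000354) and 0.66 ± 0.07 with KB02 (adjusted p = 4.35e-09). MAFK (chromosome 7, 1530714 to 1543043, plus strand) stayed at 87.8, 86.2 and 85.9 CPM with KB05, 74, 77.1 and 87.3 CPM with KB02 and 74.9, 85.4 and 74.5 CPM with DMSO. The KB05 libraries lay just above the highest DMSO library, while the KB02 and DMSO libraries overlapped. For MAFK the log2 fold change was 0.15 with KB05 (95% interval -0.01 to 0.30, adjusted p = 0.127) and 0.02 with KB02 (-0.13 to 0.17, adjusted p = 0.855). These intervals leave room for a rise of up to 1.23-fold with KB05 and 1.13-fold with KB02.

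The makeup of the small MAF transcript pool can be given per length. Summed per kb of transcript, the small MAF level was 66.1 ± 1.57 CPM per kb with KB05, 79.6 ± 3.27 with KB02 and 48.4 ± 3.73 with DMSO (SD, n = 3). MAFF made up 34.9 ± 1.79% of that sum with KB05, 43.2 ± 1.32% with KB02 and 23.6 ± 1.05% with DMSO. The MAFK share was 38.9 ± 1.34% with KB05, 29.6 ± 1.36% with KB02 and 48.1 ± 1.44% with DMSO. The MAFG share was 26.2 ± 1.33% with KB05, 27.2 ± 1.60% with KB02 and 28.3 ± 1.06% with DMSO. These shares are descriptions, without a test, and they depend on the length used. Per kb of merged exons MAFF made up 22 ± 1.37% with KB05, 28.2 ± 1.12% with KB02 and 14.1 ± 0.695% with DMSO, the smallest share in each group, whereas per kb of principal transcript it was the largest with KB02. Under both lengths the MAFF share was highest with KB02 and lowest with DMSO.

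The target genes did not move as one: OSGIN1 rose, TKT fell, and NQO1 fell with KB02. OSGIN1 (chromosome 16, 83948282 to 83966332, plus strand) measured 18.5, 21.2 and 22.6 CPM with KB05, 38.6, 37.0 and 47.1 CPM with KB02 and 14.1, 14.6 and 13.8 CPM with DMSO. Every KB05 library exceeded every DMSO library, and every KB02 library exceeded every KB05 library. OSGIN1 rose by 0.55 ± 0.11 on the log2 scale with KB05 (adjusted p = 0.000116) and by 1.53 ± 0.10 with KB02 (adjusted p = 1.23e-13), which is 2.88-fold.

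NQO1, often used as the index gene of NRF2 activity (chromosome 16, 69706996 to 69726951, minus strand), measured 21.9, 23.5 and 23.7 CPM with KB05, 17.4, 20.6 and 17.3 CPM with KB02 and 25.8, 23.0 and 23.8 CPM with DMSO. Its KB02 libraries lay below all others, and its KB05 and DMSO libraries overlapped. The log2 fold change was -0.07 with KB05 (95% interval -0.27 to 0.12, adjusted p = 0.59), an interval that reaches up to a 1.09-fold rise. With KB02 it was -0.39 ± 0.10 (adjusted p = 0.00125). KB05 against KB02 gave 0.32 ± 0.10 (adjusted p = 0.00958), a call that ended without KB02 replicate 1 (0.122) and with library size as the only scaling (0.122), in a range of 0.00623 to 0.122 over all settings.

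TKT had the highest counts of the 9 genes (chromosome 3, 53224707 to 53256052, minus strand). It measured 479, 489 and 463 CPM with KB05, 350, 329 and 312 CPM with KB02 and 539, 592 and 648 CPM with DMSO. The groups did not overlap, and KB02 was lowest. TKT changed by -0.31 ± 0.07 on the log2 scale with KB05 (adjusted p = 0.000729) and by -0.84 ± 0.07 with KB02 (adjusted p = 2.84e-11), and the KB02 value is a 1.8-fold fall.

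KB05 and KB02 were compared directly at matched dose and time, the only pair of compounds compared here. In KB05 cells 3 genes were higher than in KB02 cells (NFE2L1, NQO1, TKT) and 5 were lower (NFE2L2, KEAP1, OSGIN1, MAFF, MAFG), 8 of 9, where 40% of all genes tested were called (21.8% higher and 18.2% lower). The libraries did not overlap for 8 of the 9 genes, all but MAFK, against 50.3% of all genes. OSGIN1 differed most, at -0.98 ± 0.10 on the log2 scale (adjusted p = 1.92e-09), followed by MAFF at -0.58 ± 0.08 (adjusted p = 6.61e-07). TKT was 0.53 ± 0.07 higher (adjusted p = 4.92e-07) and NFE2L1 0.50 ± 0.07 higher (adjusted p = 7.5e-07). KEAP1 and MAFG were lower by log2 fold changes of -0.37 ± 0.07 (adjusted p = 4.97e-05) and -0.32 ± 0.07 (adjusted p = 0.000515). For MAFK the difference was 0.13 (95% interval -0.03 to 0.28, adjusted p = 0.19), so a KB05 level up to 1.21-fold that of KB02 is within the interval. With TMM none of the 9 genes differed 2-fold, but OSGIN1 was at the line, with -1.01 under RLE scaling and DESeq2, -1.09 with library size only, and -1.09 to -0.87 as single libraries were left out (-1.07 without KB02 replicate 1, -1.09 without KB02 replicate 2 and -1.04 without KB05 replicate 3). The KB05 mean lay between those of KB02 and DMSO for 7 of the 9 genes, the exceptions being NFE2L2 and MAFK. How often this held over all genes was not counted, so it is not shown to be particular to these genes. For NQO1, counted among the 7, the KB05 and DMSO libraries overlapped and their difference was not called.

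**Figure D2:**
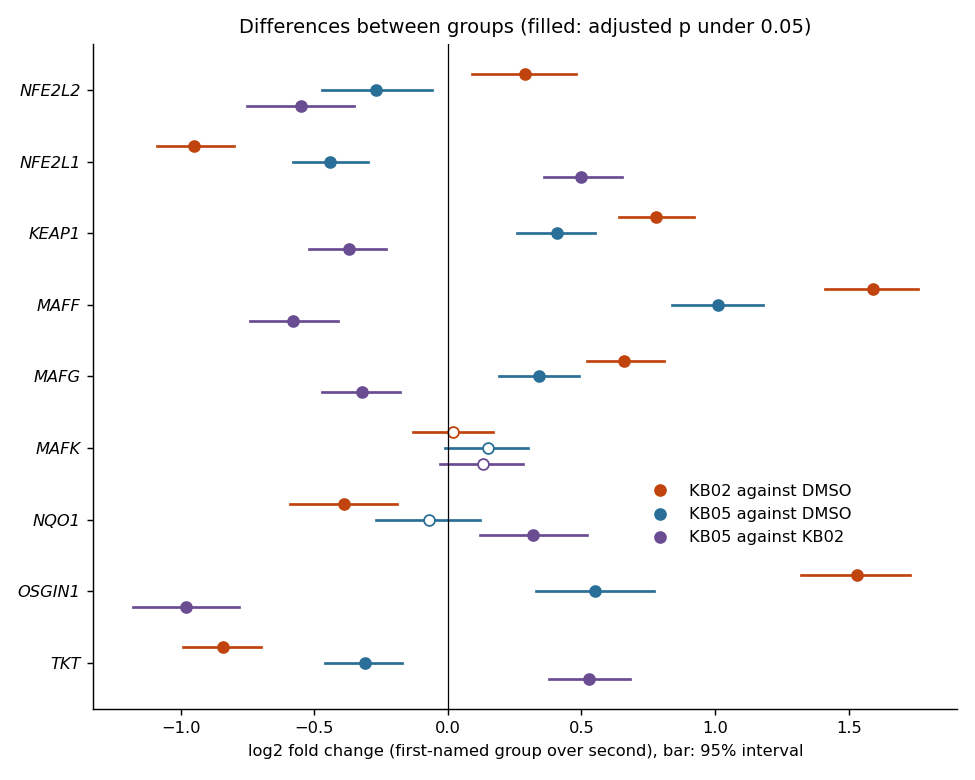
Log2 fold changes of the 9 genes, first-named group over second, with 95% intervals for KB05 against DMSO, KB02 against DMSO and KB05 against KB02; filled points have an adjusted p under 0.05. MAFK intervals cross 0 in all 3 comparisons, and NFE2L2 is the gene with a negative value for KB05 and a positive one for KB02.

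Levels can be set between genes only per length, and were divided by the length of the longest principal transcript in GENCODE 29. With KB05 the order was TKT (158 CPM per kb), KEAP1 (35.1), NFE2L1 (26.8), MAFK (25.7), MAFF (23.1), MAFG (17.3), OSGIN1 (9.3), NQO1 (7.91) and NFE2L2 (6.42), and NFE2L1 and MAFK overlapped. In KB02 libraries TKT (110 CPM per kb) was followed by KEAP1 (45.5), MAFF (34.4), MAFK (23.6), MAFG (21.7), NFE2L1 (18.9), OSGIN1 (18.3), NFE2L2 (9.41) and NQO1 (6.33). There MAFK overlapped MAFG, and NFE2L1 overlapped OSGIN1. With DMSO the order was TKT (197 CPM per kb), NFE2L1 (36.4), KEAP1 (26.5), MAFK (23.2), MAFG (13.7), MAFF (11.4), NQO1 (8.31), NFE2L2 (7.71) and OSGIN1 (6.35). Neighbours that overlapped there were KEAP1 and MAFK, MAFG and MAFF, and NQO1 and NFE2L2. OSGIN1 was thus last with DMSO, and MAFF took place 3 with KB02. The order depends on the length used: per kb of merged exons MAFF took place 6 with KB02, and TKT place 2 behind KEAP1. With DMSO, OSGIN1 then took place 8 and NFE2L2 was last.

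**Figure D3:**
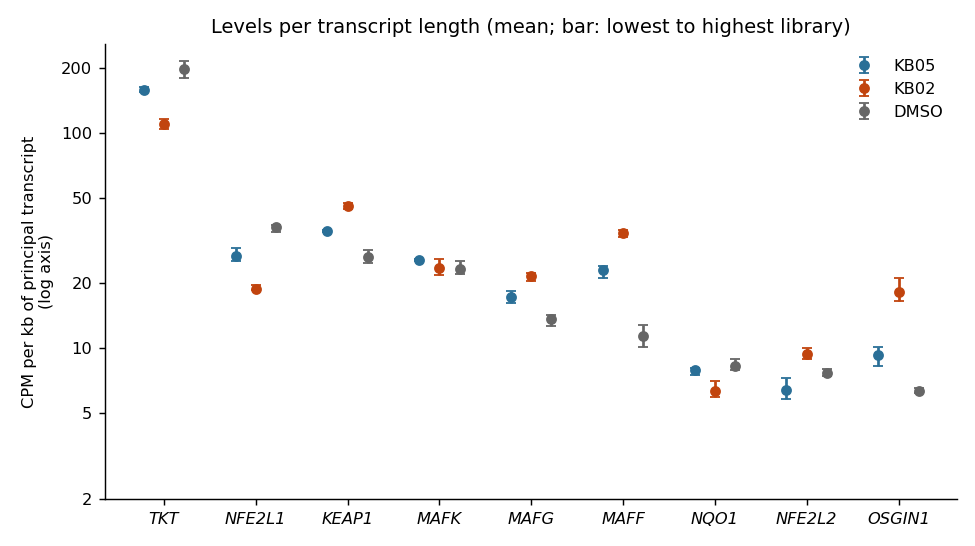
Mean level in CPM per kb of principal transcript (log axis) with KB05, KB02 and DMSO, genes ordered by their DMSO level; bars span the lowest to the highest of 3 libraries. TKT stands well above the others at 158, 110 and 197 CPM per kb, and NFE2L2 and NQO1 lie under 10 CPM per kb in every group.

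Sequence around the starts of these genes was searched for 4 motifs on both strands in RefSeq windows of 250 bases before to 50 bases after each annotated start (GRCh38.p14). Windows were found for 8 of the 9 genes, 12 windows in all, and none for MAFK. Sequence beyond these windows was not searched, so a gene without a match here may hold one elsewhere. The ARE core TGACNNNGC, the site of NRF2 with a small MAF, was in a single window each of 2 genes (KEAP1 and MAFF). Of all 35116 windows, 13.3% hold it. An AP-1 site, TGANTCA, was in that of OSGIN1 (7.71% of all windows). The E-box CACGTG was in both windows of MAFF and in that of MAFG (7.26%), and the heat shock motif GAANNTTC in none (6.77%). The shares are per window, and NFE2L2, NFE2L1, KEAP1 and MAFF had 2 windows each. Gene counts therefore do not compare directly with them. An ARE core whose middle letters are TCA also holds an AP-1 site, but no matches overlapped in these windows. The stretches below come from genes that rose with both compounds and hold a match (KEAP1, MAFF, OSGIN1, MAFG). Capitals mark the ARE core in the KEAP1 and MAFF lines, the AP-1 site in the OSGIN1 line and the E-box in the MAFG line. The E-boxes of MAFF lie in annotated exons and are not shown. Both KEAP1 matches, at -54 on the gene's strand and -31 on the other strand, and the MAFF match, at -122 on the other strand, lie in annotated exons. The OSGIN1 match, at -97, and the MAFG match, at -16, lie outside exons. A match is a description of letters, not of binding.
KEAP1 chr19:10502807-10502835, minus strand: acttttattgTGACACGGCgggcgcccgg
KEAP1 chr19:10502784-10502812, minus strand: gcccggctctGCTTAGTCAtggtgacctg
MAFF chr22:38201862-38201890, plus strand: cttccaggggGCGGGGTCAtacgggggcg
OSGIN1 chr16:83952990-83953221, plus strand: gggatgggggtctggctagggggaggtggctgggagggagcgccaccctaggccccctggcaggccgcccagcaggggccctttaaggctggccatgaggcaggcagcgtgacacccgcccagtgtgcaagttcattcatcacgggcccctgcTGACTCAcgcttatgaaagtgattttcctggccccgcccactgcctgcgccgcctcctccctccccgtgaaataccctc
MAFG chr17:81927736-81927828, minus strand: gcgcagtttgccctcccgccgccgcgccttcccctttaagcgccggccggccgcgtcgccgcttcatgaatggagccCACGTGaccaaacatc

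Some of the 9 genes overlap other genes by position, and the sources do not state whether the libraries kept strand, so how reads were divided there is uncertain. SIRT7 overlaps MAFG on the same strand and changed by -0.26 ± 0.08 on the log2 scale with KB05 (adjusted p = 0.00775), opposite to MAFG, and by 0.06 ± 0.08 with KB02 (adjusted p = 0.525). PLA2G6 lies opposite MAFF, with -0.18 ± 0.09 with KB05 (adjusted p = 0.1) and 0.28 ± 0.08 with KB02 (adjusted p = 0.00699). TMEM184A lies opposite MAFK and rose by 0.54 ± 0.08 with KB05 (adjusted p = 1.15e-06), with 0.11 ± 0.08 with KB02 (adjusted p = 0.268). A protein-coding gene on the same strand, AC009119.2, overlaps OSGIN1 and is absent from the deposited counts, so its level could not be looked at. AGPS overlaps one end of NFE2L2 and was not called in any comparison. The antisense RNA AC079305.1 lies within NFE2L2, with 82 counts in all 9 libraries against 3845 for NFE2L2, and rose by 1.83 ± 0.62 with KB05 (adjusted p = 0.0181) and 1.93 ± 0.60 with KB02 (adjusted p = 0.00884).

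By root mean square difference of centred log2 CPM over the 9 libraries, the genes most like OSGIN1 among 12962 compared were POMZP3 (0.106) and ZNF44 (0.117), where the median gene differed by 0.678. Those most like MAFF were ZNF565 (0.118) and PVT1 (0.123), where the median was 0.703. The nearest of so many genes lie under the median by selection, so this contrast does not show an unusual likeness. KEAP1, MAFG and the others did not reach a 2-fold change and were not matched.

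Other known NRF2 targets moved in both directions, and HMOX1 rose most with either compound. Of 38 measured, 11 rose and 10 fell with KB05 (median log2 fold change 0.09), and 13 rose and 12 fell with KB02 (median 0.05), where the median of all genes was 0 in both. Of all genes tested, 39.8% were called with KB05 and 46.1% with KB02. HMOX1, which opens the haem ring, lay at 515 to 571 CPM with KB05, 43 to 62.1 CPM with KB02 and 8.16 to 11.3 CPM with DMSO. Its log2 fold change was 5.81 ± 0.15 with KB05 (adjusted p = 3.38e-11) and 2.43 ± 0.15 with KB02 (adjusted p = 3.2e-08). OSER1, named for its response to oxidative stress, rose to 58.3 ± 1.91 CPM with KB05 and 57.6 ± 0.905 CPM with KB02, against 21.6 ± 1.60 CPM with DMSO (SD, n = 3). SLC7A11, the cystine transporter that feeds glutathione synthesis, lay at 24.8 to 27.8 CPM with KB05, 58.8 to 69.2 CPM with KB02 and 32.9 to 40.8 CPM with DMSO. KB05 against KB02 called 12 of the 38 higher and 5 lower (median 0.10, all genes 0.06), where 40% of all genes tested were called. With library size only this split was 9 higher and 8 lower, and that of KB02 against DMSO 17 higher and 10 lower. Among them HMOX1 differed by 3.37 ± 0.13 and SLC7A11 by -1.32 ± 0.09 (adjusted p = 4.97e-13). Of 3 further targets, chosen after their values were seen, SRXN1 (sulfiredoxin) rose by 0.41 ± 0.09 with KB05 (adjusted p = 0.000319) and had 0.04 ± 0.09 with KB02 (0.728). TXN (thioredoxin) fell by 0.23 with KB05 (0.0159) and by 0.77 with KB02 (7.2e-10). GCLC, of glutathione synthesis, had 0.06 ± 0.08 with KB05 (0.579) and rose by 0.48 ± 0.08 with KB02 (4.83e-06).

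TKT belongs to the pentose phosphate pathway, which supplies NADPH through its oxidative branch. Of 22 enzymes of that pathway and of NADPH supply measured, 2 rose and 7 fell with KB02 (median -0.01), and 5 rose and 3 fell with KB05 (median 0.08). Over all genes tested the median was 0 in both, and 46.1% were called with KB02 and 39.8% with KB05. PGD, the second NADPH-making step of the oxidative branch, changed by -0.17 ± 0.07 with KB05 (adjusted p = 0.049) and -0.37 ± 0.07 with KB02 (adjusted p = 3.36e-05). PGD was chosen after its values were seen. H6PD, the dehydrogenase of the endoplasmic reticulum, fell to 16.4 ± 3.83 CPM with KB05 and 11.9 ± 0.754 CPM with KB02, against 26.3 ± 2.34 CPM with DMSO. NNT, the mitochondrial transhydrogenase, fell to 15.3 ± 1.56 CPM with KB05 and 13.7 ± 2.02 CPM with KB02, against 28.4 ± 4.39 CPM with DMSO. ALDH1L1, a folate enzyme that makes NADPH, rose to 12.7 ± 1.06 CPM with KB05 and 4.05 ± 0.618 CPM with KB02, against 1.29 ± 0.209 CPM with DMSO. In KB05 cells 9 of the 22 were higher than in KB02 cells and 1 lower, ALDH1L1 by 1.65 ± 0.16 and MTHFD1, another folate enzyme, by 0.48 ± 0.07. The list median was 0.19, against 0.06 for all genes, of which 21.8% were called higher and 18.2% lower. The KB05 count of 8 calls against DMSO was 5 without DMSO replicate 1 or 2 or KB05 replicate 2 or 3. The 10 calls between the compounds were 5 with library size only or without KB02 replicate 1, and 6 without KB05 replicate 1 or 3. With library size only, 5 rose and 7 fell with KB02 against DMSO.

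The relatives of NRF2 and of the small MAFs include BACH1 and the large MAFs. Of 7 measured CNC, BACH and large MAF genes, 4 rose and 1 fell with KB05 (median 0.80), and 3 rose and 1 fell with KB02 (median -0.05). The all-gene median was 0 in both, and 39.8% of all genes tested were called with KB05 and 46.1% with KB02. MAFA, a large MAF known for insulin gene control, rose to 4.82 ± 0.891 CPM with KB05 and 3.7 ± 0.314 CPM with KB02, against 0.673 ± 0.0589 CPM with DMSO. BACH1, a repressor that competes with NRF2 for small MAF partners, measured 8.2 ± 0.429 CPM with KB05, 11.1 ± 1.12 CPM with KB02 and 4.69 ± 0.865 CPM with DMSO. Its difference between KB05 and KB02 was -0.43 ± 0.14 (adjusted p = 0.0143). Between the compounds 1 of the 7 was higher and 1 lower, where 40% of all genes tested were called. Without KB05 replicate 1 only 1 call was left. With library size only 1 was higher and 2 lower between the compounds, and 3 rose and 0 fell with KB02, as also with upper-quartile scaling and DESeq2.

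Among genes that act on NRF2 and NRF1 protein, CUL3 was lower with KB05 and higher with KB02. CUL3, the scaffold of the ligase that KEAP1 serves, lay at 29.4 to 33.3 CPM with KB05, 78.5 to 88.7 CPM with KB02 and 65.2 to 72.5 CPM with DMSO. The KB05 libraries were thus under all others. CUL3 changed by -1.18 ± 0.08 with KB05 against DMSO (adjusted p = 4.87e-13), by 0.28 ± 0.08 with KB02 against DMSO (adjusted p = 0.00257) and by -1.46 ± 0.08 for KB05 against KB02 (adjusted p = 3.05e-15). SQSTM1, the autophagy receptor p62 that binds KEAP1, rose to 201 ± 14.1 CPM with KB05 and 154.5 ± 5.03 CPM with KB02, against 114 ± 3.69 CPM with DMSO. SYVN1, a ubiquitin ligase of the endoplasmic reticulum that is reported to act on NRF2, fell to 63.2 ± 5.32 CPM with KB05 and 51 ± 3.14 CPM with KB02, against 101 ± 4.03 CPM with DMSO. AMER1, a KEAP1-binding protein, fell to 3.05 ± 0.109 CPM with KB05 and 2.43 ± 0.445 CPM with KB02, against 4.41 ± 0.626 CPM with DMSO. CUL1, scaffold of the ligase that acts on NRF2 through BTRC, was lower with KB05, at 69.5 ± 2.04 CPM, than with KB02, at 105 ± 2.76 CPM, and DMSO lay at 66.5 ± 2.89 CPM. In all, 4 of 23 measured rose and 6 fell with KB05 (median 0.06), 9 rose and 6 fell with KB02 (median 0.06), and 4 were higher and 7 lower in KB05 than in KB02 cells (median -0.10). With library size only the KB02 split was 11 and 4, and that between the compounds 3 and 9. The all-gene median was 0 with either compound and 0.06 between the compounds. Of all genes tested, 39.8% were called with KB05, 46.1% with KB02 and 40% between the compounds.

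Proteasome genes, which NRF1 is known to drive, had medians close to that of all genes. Of 34 measured, 7 rose and 3 fell with KB05 (median 0.03), and 11 rose and 5 fell with KB02 (median 0.01). Over all genes tested the median was 0 in both, and 39.8% were called with KB05 and 46.1% with KB02. ADRM1, a ubiquitin receptor of the proteasome, rose by 0.39 ± 0.07 with KB05 and 0.61 ± 0.07 with KB02, whereas PSMD12 changed by -0.79 ± 0.08 with KB05 and had -0.02 ± 0.08 with KB02 (adjusted p = 0.847). PSMA6 had -0.15 ± 0.07 with KB05 (adjusted p = 0.0751) and changed by -0.58 ± 0.07 with KB02. In KB05 cells 11 were higher and 12 lower than in KB02 cells, PSMD12 by -0.77 ± 0.08 and PSMD7 by -0.48 ± 0.07. Without KB05 replicate 3 these 23 calls were 15. Of all genes tested, 40% were called between the compounds. The direction of this list depends on the scaling: between the compounds 6 were higher and 13 lower with RLE or upper-quartile scaling, 7 and 13 with DESeq2, and 2 and 15 with library size only. For KB02 against DMSO 12 rose and 3 fell with upper-quartile scaling, and 17 rose and 1 fell with library size only.

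**Figure D4:**
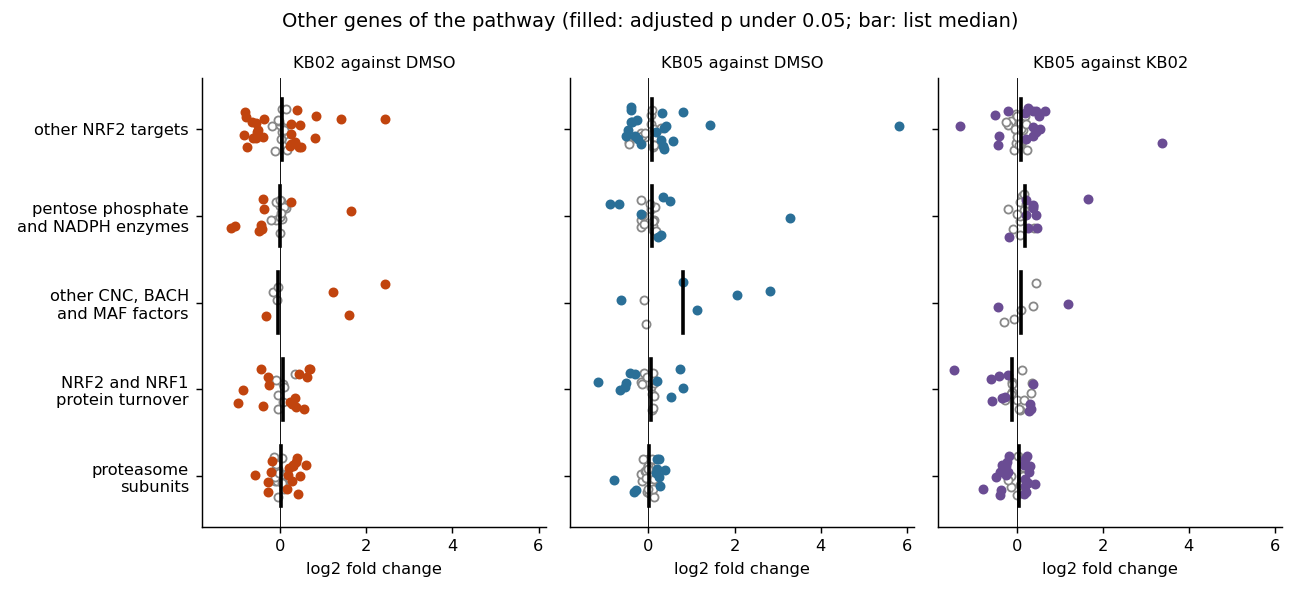
Log2 fold changes of the other genes of the pathway in 5 lists for the 3 comparisons; filled points have an adjusted p under 0.05 and the bar is the list median. List medians lie near 0 in most panels, except 0.80 for the other CNC, BACH and MAF factors with KB05, while HMOX1 reaches 5.81 with KB05.

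**Figure D5:**
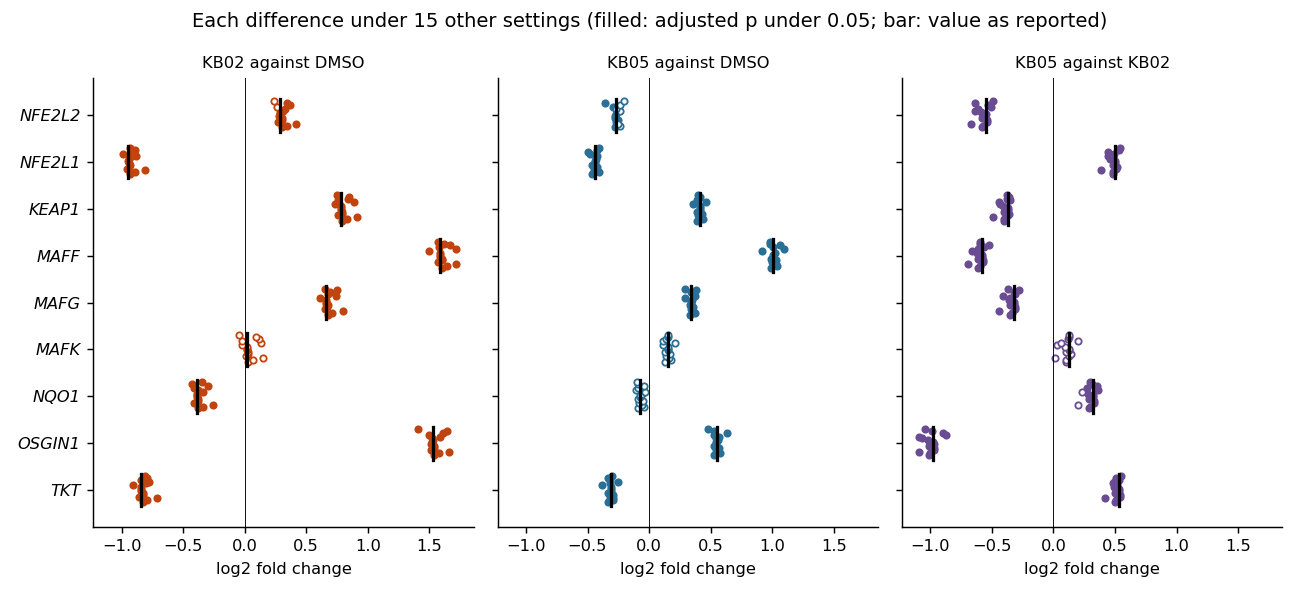
Log2 fold changes of the 9 genes under 15 other settings of scaling, filter, test and samples, for the 3 comparisons; the bar is the value as reported, and open points have an adjusted p of 0.05 or more. Apart from MAFK with KB02 against DMSO, no gene crosses 0, and open points gather at NFE2L2 against DMSO, at NQO1 and at MAFK.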

How the data were processed

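RNA was sequenced from 22Rv1 cells in 3 groups of 3 libraries (KB05, KB02, DMSO). The authors deposited estimated counts per gene, unscaled; Salmon 1.3.0, DESeq2 1.30.1, hg38 and GRCh38.p13 are named per the submitters' processing notes. The annotation release was not given in the sources used. Salmon splits reads of similar or overlapping genes by estimate. Per the labels' protocols the library kit was NEBNext Ultra II RNA. Between 20.3% and 24.3% of values were not whole, and all were rounded. Of 60232 identifiers 60064 matched the name table and 41714 received a symbol.

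In R 4.3.3, edgeR 4.0.16 (filterByExpr, minimum count 10, TMM, robust quasi-likelihood fit of all 9 libraries by group) tested 18379 genes, with Benjamini-Hochberg adjustment over all of them. The standard error is the log2 fold change divided by the square root of F, and intervals are at 95%. The text names all 9 genes, per list up to 2 called genes, those that changed most among genes at a mean log2 CPM of 1 or more, and the 2 genes nearest to each of the 9 that changed 2-fold. Alternatives were other scalings and filters, DESeq2 1.42.0, limma 3.58.1, a replicate block, fits of 2 groups, and each library left out. Simulated data for KB05 against DMSO held 17960 genes, of which 200 were changed. There the test recovered 70.7% of genes changed by 1 and 92.9% of those changed by 2 on the log2 scale. Of its 170 calls, 8 were false. The real comparison called 39.8% of genes, so these rates may not hold for it. The 9 genes and the lists were chosen with earlier results of these data known. Replicates of a group differed beyond sampling noise (chi-square per degree of freedom 4.56 to 10.8). The design text calls the replicates biological, and n is 3 in each group. Some genes of the lists are counted but not reported by name here.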

Additional observations from a re-analysis of the deposited data

How the results depend on the processing

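Under other settings 392 log2 fold changes of the 9 genes kept their direction and side of the threshold, 10 lost their call and 3 changed sign. The 10 that lost their call were those of NFE2L2 against DMSO and NQO1 between the compounds, given above. MAFK with KB02 against DMSO, 0.02 and not called, ran from -0.05 to 0.13 as single libraries were left out, and was -0.02 with DMSO replicate 1 or 3 left out and -0.05 with KB02 replicate 3 left out. Called genes among the 9 numbered 6 to 7 with KB05 against DMSO, 7 to 8 with KB02 against DMSO and 7 to 8 for KB05 against KB02. Scaling by library size alone put the all-gene median 0.13 higher for KB02 against DMSO and moved it by -0.11 for KB05 against KB02. The share of calls that were higher was then 63.8% against 49.5% with TMM, and 37.4% against 54.4%. No value of the 9 genes changed sign under that scaling. Deviations of same-numbered libraries correlated weakly (-0.041 to 0.081), and those of differently numbered libraries ran from -0.066 to 0.039. These values do not settle whether the replicate numbers pair the samples. A replicate block changed no call among the 9 genes, and called 7476 genes for KB05 against DMSO, 8600 for KB02 against DMSO and 7518 for KB05 against KB02. With 3 libraries a group, the intervals of the differences that were not called still hold small changes.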
